A study of Mus musculus with 6 samples.

Results

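The genes described here carry a fatty acid from its carbon supply to its final length and number of double bonds: *Acly*, *Acss2*, *Acaca*, *Fasn*, *Scd1*, *Scd2*, *Fads1*, *Fads2*, *Elovl5* and *Elovl6*. Like the gene lists used below, they were chosen by name with earlier results of these data known. Counts of called genes in these sets, beside those of all genes, are therefore a description. All 10 were found among the 16300 genes of the expression table. The table comes from RNA-seq of primary mouse granulosa cells (GCs), the somatic cells that surround and nourish the oocyte in the follicle. Control GCs received medium alone and treated GCs received 25 nM dihydrotestosterone (DHT), an androgen that aromatase does not turn into estrogen, and both were taken at 24 h. All mice were wild type C57BL/6J of 8 to 9 weeks, and DHT is the only difference between the groups that the treatment labels give. There were 3 control and 3 DHT libraries, each from cells pooled over several mice, and no source says which libraries shared mice or a culture day. The p-values therefore measure the spread between these libraries.

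Fatty acid synthesis starts in the cytosol, where citrate or acetate is turned into acetyl-CoA and acetyl-CoA is carboxylated to malonyl-CoA. Fatty acid synthase joins these units into palmitate, which elongases lengthen and desaturases furnish with double bonds, and the desaturases and elongases that act on dietary linoleic and linolenic acid make the long polyunsaturated fatty acids. Many of these genes are known targets of the SREBP transcription factors, which also drive cholesterol synthesis, the source of the substrate for ovarian steroids.

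The libraries held 36111177 to 41928585 reads on genes. The deposited values are normalized counts, reads divided by a size factor for the depth of the library. The labels name granulosa cells as the cell type, whereas the extraction text speaks of whole ovary and the treatment text speaks of DHT in all samples. The groups were taken from the treatment characteristic. Of 10 markers of GCs, 9 were measured, and their summed normalized counts ran from 115851 to 126634 in control and from 101200 to 107040 in DHT, and 1 of them was called higher, 2 lower and 6 not, where 6.52% of all genes tested were called higher and 4.66% lower. *Inha*, a subunit of inhibin, was lower in DHT (log2 fold change -0.61, adjusted p = 0.0016), *Foxl2*, a transcription factor of GCs, was slightly lower (-0.15, adjusted p = 0.049), and *Hsd17b1*, an enzyme of estradiol synthesis, was higher (0.48, adjusted p = 0.0044). *Cyp19a1* was not analysed here. Of 4 markers of smooth muscle 3 were called higher in DHT, with sums of 4632 to 6802 in control and 8672 to 10300.5 in DHT. Of 4 leukocyte markers measured, *Csf1r* was called lower (-0.64, adjusted p = 0.027), with sums of 471 to 546 in control and 362 to 605 in DHT. The 2 theca markers measured, *Ptch1* (-0.19, adjusted p = 0.064) and *Nr2f2* (-0.17, adjusted p = 0.072), were not called, though every DHT library lay below every control library, with sums of 3889 to 4203 in control and 3468 to 3633 in DHT. The 3 endothelial markers (sums of 101 to 147 in control and 112 to 169 in DHT), the 5 of the surface epithelium (3822 to 4326 and 3000.2 to 4024) and the 7 of the oocyte (355 to 834 and 108 to 617) did not pass the test. The part of these markers in the results below was not tested. Of 7 markers of adipocytes, a lipid-making cell type, only *Fabp4* was measured, at 22.8 to 31.5 normalized counts in control and 29.4 to 39.2 in DHT, and *Adipoq*, *Plin1*, *Lep*, *Retn*, *Cfd* and *Cidec* were not analysed here. In RNA from a whole culture, fewer cells of a type and less RNA per cell cannot be told apart.

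All 10 genes were higher in DHT than in control GCs. Each rose in the test across all genes (limma on log2(normalized count + 1), with a threshold of 0.05 on the Benjamini-Hochberg adjusted p), where 6.52% of the 16292 genes tested were called higher and 4.66% lower. In each of the 10 genes the lowest DHT library exceeded the highest control library, which was so for 15.9% of all genes tested. The log2 fold change ran from 0.30 to 1.68 with a median of 0.64, beside a median of -0.01 over all genes. It was above 1 in *Scd1*, *Fads2*, *Scd2* and *Acss2*, and 0.908% of all genes tested were called higher with a log2 fold change above 1 and 0.399% called lower with one below -1. This count of 4 was 2 without control replicate 1, where *Scd2* came to 0.99 and *Fads2* to 0.95. *Acss2* lay at the threshold, at 1.0009, and fell to 0.89 without control replicate 2 and to 0.93 without DHT replicate 3.

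**Figure D1:**
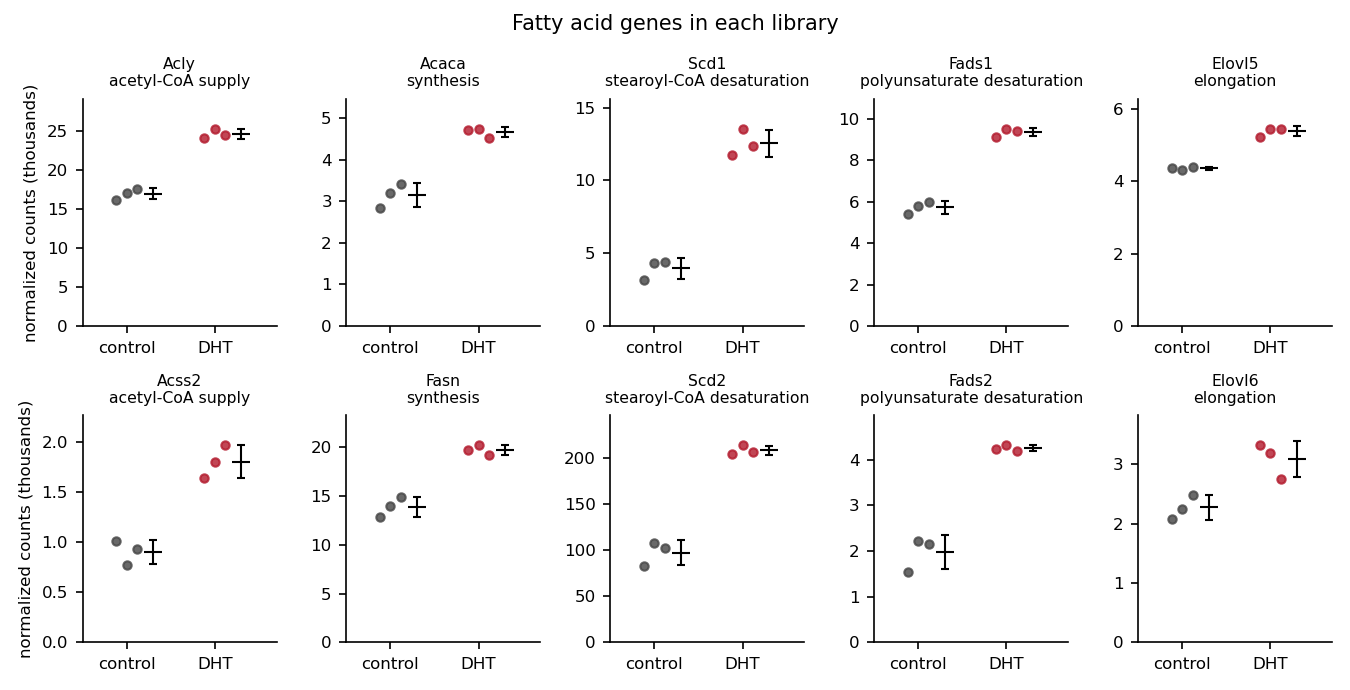
Normalized counts of each fatty acid gene, in units of 1000 and from 0, with 1 point per library, 3 control libraries in grey and 3 DHT libraries in red, and the mean with its SD (n = 3) beside them. In every panel the DHT points lie above the control points, and the ratio of the group means is highest for *Scd1* (12554 against 3953 normalized counts) and lowest for *Elovl5* (5375 against 4353). The vertical scale differs between panels.

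Both enzymes that supply cytosolic acetyl-CoA were higher in DHT. *Acly* (ENSMUSG00000020917, GRCm38 chr11:100476353-100528000, minus strand) encodes ATP citrate lyase, which splits the citrate that leaves mitochondria. It stood at 16209.9, 17115 and 17575 normalized counts in control replicates 1, 2 and 3 and at 24068, 25349 and 24545 in DHT replicates 1, 2 and 3. The groups were far apart relative to their spread, and the log2 fold change was 0.54 (SE 0.04, adjusted p = 0.00014 by limma with Benjamini-Hochberg adjustment).

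*Acss2* (ENSMUSG00000027605, chr2:155517948-155585724, plus strand) encodes the acetyl-CoA synthetase that makes acetyl-CoA from acetate. It had 1009, 774 and 929 normalized counts in the control libraries and 1644, 1798 and 1972 in the DHT libraries. It was the only one of the 10 genes that was highest in control replicate 1, and the lowest DHT library was still well above it. The log2 fold change was 1.0 (SE 0.10, adjusted p = 0.00042). Its exons share 395 bases with *Gss* and 197 bases with *Ggt7* on the opposite strand, 3.89% and 1.94% of its exonic length, and 335 bases with *Acss2os*, which was not analysed here. No source used here says whether the counting used strand. *Gss* was lower in DHT (log2 fold change -0.24, adjusted p = 0.044), and *Ggt7* was not called (-0.06, adjusted p = 0.84). Within a library the log2 ratio of *Acss2* to *Acly* was higher in every DHT library than in every control library, by 0.46 on average. With 3 libraries against 3, the two-sided exact permutation test gave p = 0.1, the smallest it allows, and 0.125 after adjustment over 5 such pairs.

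The pair of enzymes that build palmitate rose by about the same size. *Acaca* (ENSMUSG00000020532, chr11:84129672-84401651, plus strand) encodes acetyl-CoA carboxylase 1, which makes malonyl-CoA in the committed step. Its normalized counts were 2849, 3203 and 3418 in control and 4711, 4755 and 4530.5 in DHT. The DHT libraries lay closer together than the control libraries, and the log2 fold change was 0.57 (SE 0.06, adjusted p = 0.00064). *Fasn* (ENSMUSG00000025153, chr11:120805846-120824547, minus strand) encodes fatty acid synthase, the multienzyme that assembles palmitate. It had 12813, 13989 and 14871 normalized counts in control and 19650.2, 20193 and 19219.9 in DHT. As with *Acaca*, control replicate 1 was lowest and DHT replicate 2 highest, and the log2 fold change was 0.51 (SE 0.05, adjusted p = 0.00059). The log2 ratio of *Acaca* to *Fasn* differed between the groups by 0.06 without overlap (exact permutation p = 0.1 two-sided, adjusted 0.125).

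For 7 of the 10 genes RefSeq's promoter windows on GRCm38.p6 (250 bases before the start and 50 after it) were used. *Scd1*, *Scd2* and *Fads1* had no window in the set used, so *Fads2* was the only desaturase searched. The RefSeq start used lies within the GENCODE gene by 65766 bases in *Acaca*, 243 in *Fads2*, 95 in *Acss2*, 31 in *Elovl6* and 1 in *Elovl5*, so the window of *Acaca* is an inner start and the others are shifted against the outermost one, whereas the starts of *Acly* and *Fasn* are the same in both. The letters CCAAT, bound by NF-Y, a known partner of SREBPs, stood on either strand in 4 of them (*Acly*, *Acss2*, *Elovl5* and *Fasn*) and in 37.4% of 32851 promoters. GGGCGG, the GC box bound by SP1, stood in 3 (*Acly*, *Acss2* and *Fads2*) and in 35.7% of all, and CACGTG in 1 (*Elovl5*) and in 7.15% of all. TCACNCCAC, a form of the sterol regulatory element, stood in none of the 7 and in 1.24% of all. A full palindromic androgen response element stood in none and in 0.00913%, and the direct repeat read by liver X receptors in none and in 0.0152%. These exact strings are rare among all promoters, so their absence from 7 windows does not show that the genes lack such sites. The 250 bases before the start are shown for *Fasn*, the central enzyme of synthesis, at chr11:120824548-120824797 on the minus strand, and for *Elovl5*, the gene with the smallest change, at chr9:77917115-77917364 on the plus strand, since both hold more than 1 match to CCAAT. Capitals mark CCAAT or its reverse complement ATTGG.
Fasn: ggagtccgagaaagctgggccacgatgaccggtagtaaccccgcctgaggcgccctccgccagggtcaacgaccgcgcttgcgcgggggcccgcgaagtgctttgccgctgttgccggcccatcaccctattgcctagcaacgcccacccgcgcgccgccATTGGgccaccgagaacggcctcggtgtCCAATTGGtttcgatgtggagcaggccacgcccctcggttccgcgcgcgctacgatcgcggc
Elovl5: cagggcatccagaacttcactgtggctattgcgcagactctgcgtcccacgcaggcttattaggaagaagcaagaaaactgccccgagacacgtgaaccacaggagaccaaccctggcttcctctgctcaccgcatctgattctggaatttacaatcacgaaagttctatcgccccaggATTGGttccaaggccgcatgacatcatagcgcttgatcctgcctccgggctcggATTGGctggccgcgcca
In *Fasn* the matches began 90, 62 and 59 bases before the start, and the last of these overlaps the one before it. In *Elovl5* they began 71 and 17 bases before the start. The log2 fold changes of these genes were 0.51 and 0.30. The matches describe the sequence and not binding.

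The stearoyl-CoA desaturases put the double bond into palmitate and stearate to make palmitoleate and oleate, and *Scd1* had the largest log2 fold change of the 10 genes. *Scd1* (ENSMUSG00000037071, chr19:44394455-44407879, minus strand) counted 3137.5, 4329.5 and 4392 in control and 11739, 13559.6 and 12364 in DHT. Every DHT library held over 2 times the count of every control library. Its log2 fold change of 1.68 (SE 0.12, adjusted p = 8.2e-05) was rank 35 from the top of the 16292 genes, and the mean was 3.18 times the control mean. *Scd2* (ENSMUSG00000025203, chr19:44293674-44306864, plus strand), the isoform known from brain and other tissues outside the liver, had 82448, 107518 and 101738 normalized counts in control and 203893, 213562 and 206349 in DHT. Control replicate 1 stood apart on the low side, whereas the DHT libraries were within a few percent of each other (CV 2.42%, against 13.5% in control). The log2 fold change was 1.11 (SE 0.09, adjusted p = 0.00018), and it was 0.80 with quantile normalization. The 61 bases of *Mir5114* lie within the exons of *Scd2* on the same strand.

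*Scd1* and *Scd2* lie 87.6 kb apart on chromosome 19, on opposite strands, and *Scd2* was by far the more abundant. Nevertheless *Scd1* gained on it. The log2 ratio of *Scd1* to *Scd2* was -4.72, -4.63 and -4.53 in the control libraries and -4.12, -3.98 and -4.06 in the DHT libraries, a difference of 0.58 (exact permutation p = 0.1 two-sided, adjusted 0.125). The groups did not overlap, and the difference stayed between 0.53 and 0.62 when any library was left out. *Scd2*, *Scd3* and *Scd4* are paralogs of *Scd1*, so the split of reads among these genes is uncertain, and with it the ratio of *Scd1* to *Scd2*. *Scd3* counted only 9.48 ± 0.356 (SD, n = 3) in control and 23.2 ± 5.56 in DHT, and *Scd4* 57.9 ± 28.9 in control and 108 ± 13.0 in DHT. *Scd3* was called higher (log2 fold change 1.18, adjusted p = 0.028), though not with any library left out (adjusted p = 0.051 to 0.101), and *Scd4* was not called (1.0, adjusted p = 0.081). For each 100 counts of *Scd1* there were 0.15 to 0.32 of *Scd3* and 0.78 to 2.02 of *Scd4*.

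The desaturases of polyunsaturated fatty acids also rose. *Fads1* (ENSMUSG00000010663, chr19:10182888-10196877, plus strand) encodes the delta-5 desaturase, whose products are arachidonic and eicosapentaenoic acid. Its normalized counts were 5392, 5813 and 5965 in control and 9154, 9541 and 9402 in DHT. The spread within each group was small, and *Fads1* had the lowest adjusted p of the 10 genes (log2 fold change 0.71, SE 0.04, adjusted p = 5e-05). *Fads2* (ENSMUSG00000024665, chr19:10062765-10101746, minus strand) encodes the delta-6 desaturase, which takes the opening step on linoleic and linolenic acid. It counted 1549, 2231 and 2154 in control and 4227, 4323 and 4195 in DHT. Control replicate 1 was again apart, at 0.33 below the control mean on the log2 scale, and the control CV of 18.9% was the highest of the 10 genes beside 1.57% in DHT. The log2 fold change was 1.12 (SE 0.12, adjusted p = 0.00052), and it was 0.95 without that library.

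*Fads1* and *Fads2* are neighbours too, 81.1 kb apart on chromosome 19 and on opposite strands. The log2 ratio of *Fads2* to *Fads1* was -1.80, -1.38 and -1.47 in control and -1.11, -1.14 and -1.16 in DHT. It was thus higher in every DHT library, by 0.41 on average, and nearly the same in the 3 of them (exact permutation p = 0.1 two-sided, adjusted 0.125). Leaving out control replicate 1 brought the difference to 0.285.

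The elongases had the smallest changes. *Elovl5* (ENSMUSG00000032349, chr9:77917364-77984519, plus strand) encodes the enzyme that lengthens polyunsaturated fatty acids between the steps of *Fads2* and *Fads1*. It had 4351, 4321 and 4386 normalized counts in control and 5219, 5453 and 5454 in DHT. The control libraries were almost identical, with a CV of 0.751%, and the log2 fold change of 0.30 (SE 0.04, adjusted p = 0.00086) was the smallest of the 10. *Elovl6* (ENSMUSG00000041220, chr3:129532355-129638495, plus strand) encodes the enzyme that lengthens palmitate to stearate, the substrate of stearoyl-CoA desaturase. Its normalized counts were 2075, 2252 and 2486 in control and 3321, 3188 and 2748 in DHT. Control replicate 3 and DHT replicate 3 came closest to each other, and the adjusted p was the highest of the 10 genes (log2 fold change 0.44, SE 0.08, adjusted p = 0.0096). It was 0.079 by limma without an intensity trend and 0.089 with control replicate 1 and DHT replicate 2 both left out, and *Elovl6* was called in the other 15 of 17 settings. The log2 ratio of *Elovl6* to *Elovl5* overlapped between the groups (difference 0.14, exact permutation p = 0.4 two-sided).

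**Figure D2:**
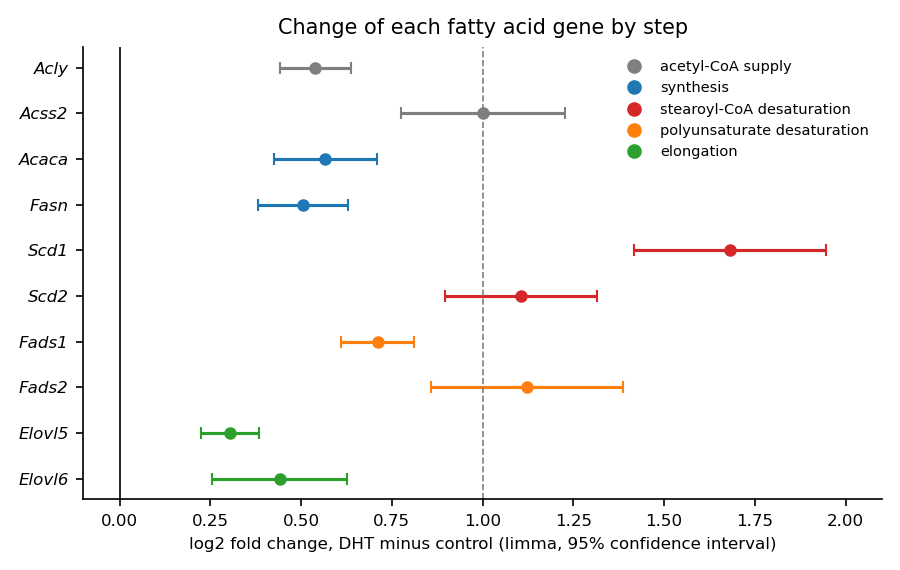
Log2 fold change of each fatty acid gene, DHT minus control, with its 95% confidence interval from limma (3 libraries per group), ordered by step of the pathway. All intervals lie above 0, and the estimates run from 0.30 for *Elovl5* to 1.68 for *Scd1*.

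By step, the desaturases had log2 fold changes of 0.71 to 1.68 (median 1.11, 4 genes), the acetyl-CoA enzymes 0.54 and 1.0, the synthesis enzymes 0.51 and 0.57 and the elongases 0.30 and 0.44. The estimate of each of the 4 desaturases was thus larger than that of either enzyme of palmitate synthesis and of either elongase. To set the steps against each other within a library, each gene was divided by *Fasn*, a comparison added after the values had been seen. The log2 ratio to *Fasn* was higher in every DHT library than in every control library for *Scd1* (by 1.18), *Fads2* (0.62), *Scd2* (0.60), *Acss2* (0.50), *Fads1* (0.21) and *Acaca* (0.06). For *Elovl5* it was lower in every DHT library, with a difference of -0.20. *Acly* (0.03, exact permutation p = 0.4 two-sided) and *Elovl6* (-0.06, p = 0.5) overlapped. The 7 ratios without overlap each had an exact permutation p of 0.1, the smallest possible, and 0.129 after adjustment over the 9 ratios. Over all other genes tested, 1.35% had a ratio to *Fasn* that was higher in DHT without overlap and 77% one that was lower.

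**Figure D3:**
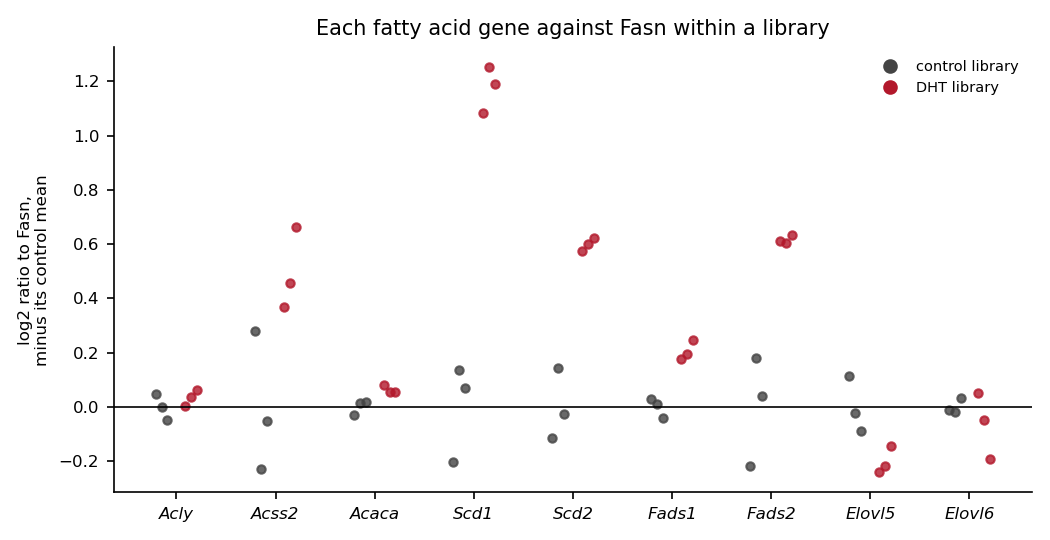
Log2 ratio of each of the other 9 fatty acid genes to *Fasn* in the same library, relative to the control mean, with 1 point per library (control grey, DHT red). The DHT points of *Scd1*, *Scd2*, *Fads1*, *Fads2* and *Acss2* lie clear above the control points, those of *Elovl5* lie below them, and those of *Acly* and *Elovl6* overlap them.

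Compared per kilobase of exon, the genes differed widely in level. *Scd2* had 17796 ± 2403 normalized counts per kb (SD, n = 3) in control and 38055 ± 920 in DHT, which moved it from rank 51 to rank 16 of 16259 genes. *Acly* came next, at 3214 ± 132 in control and 4670 ± 123 in DHT. In control, *Fasn* (1269 ± 94.3 per kb), *Elovl5* (1236 ± 9.29) and *Fads1* (1189 ± 61.6) followed, and these 3 neighbours did not differ beyond their spread. *Scd1* (808 ± 145), *Fads2* (600.4 ± 113), *Elovl6* (353 ± 32.1), *Acaca* (185 ± 16.9) and *Acss2* (89.0 ± 11.8) closed the order.

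In DHT the order in the middle was different. *Scd1*, at 2566 ± 189 normalized counts per kb, stood above *Fads1* (1946 ± 40.7), *Fasn* (1798 ± 44.6) and *Elovl5* (1526 ± 38.6), and its rank among all genes went from 2468 to 626. *Fads2* reached 1289 ± 20.2 per kb, and *Elovl6*, *Acaca* and *Acss2* remained the lowest at 479.8 ± 46.6, 273 ± 6.97 and 178 ± 16.1. These lengths join the exons of every annotated transcript. With the longest transcript of each gene instead, *Fads1*, *Elovl5* and *Fasn* stood in the reverse order in control, at 1654, 1565 and 1382 per kb, and in DHT *Fads1*, at 2707 ± 56.6 per kb, stood above *Scd1*, at 2598 ± 191, within the spread of the latter. *Acaca* and *Acss2* then had 332 and 251 per kb in control and 490.4 and 500.02 in DHT, where *Acss2* was no longer the lowest. The place of *Scd1* against *Fads1* in DHT and that of *Acss2* against *Acaca* thus depend on the length used. So do the ranks among all genes. With the longest transcript, *Scd2* went from rank 81 in control to 23 in DHT and *Scd1* from 3298 to 874.

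**Figure D4:**
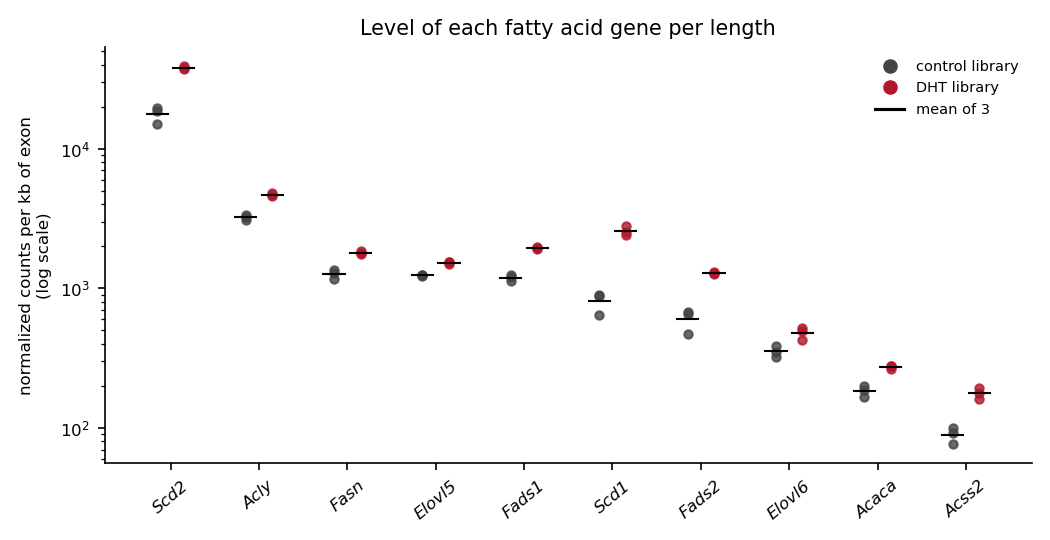
Normalized counts per kb of exon for each fatty acid gene on a log10 axis, 1 point per library (control grey, DHT red). *Scd2* stands far above the others in all 6 libraries, and *Scd1* goes from below *Fasn*, *Elovl5* and *Fads1* in control to above them in DHT, which for *Fads1* does not hold with the length of the longest transcript.

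Because *Scd2* was so abundant, it carried most of the summed signal. The 10 genes took 0.346%, 0.420% and 0.407% of all normalized counts in the control libraries and 0.739%, 0.766% and 0.737% in the DHT libraries. Without *Scd2* the other 9 took 0.130% to 0.145% in control and 0.214% to 0.224% in DHT. Of the sum per kb over the 10 genes, the 4 desaturases made up 74.1%, 77.9% and 76.4% in control and 83.0%, 83.2% and 83.1% in DHT. Within them, the share of *Scd1* and *Scd2* went up, from between 67.3% and 71.4% to between 76.8% and 77.1%. That of *Fads1* and *Fads2* went down, from between 6.54% and 6.80% to between 6.07% and 6.16%. The share of the elongases went from between 5.47% and 6.66% to between 3.76% and 3.87%, and that of *Acaca* and *Fasn* from between 5.09% and 5.72% to between 3.86% and 4.01%. These shares add to a whole, so one cannot go up unless another goes down.

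The same libraries were often low or high across the genes. Control replicate 1 was the lowest control library in 8 of the 10 genes, all but *Acss2* and *Elovl5*, and control replicate 3 the highest in 7. DHT replicate 2 was the highest DHT library in 7 genes. The summed oocyte markers were 834, 355 and 367 normalized counts in control replicates 1, 2 and 3 and 586, 108 and 617 in the DHT libraries, with *Zp3* and *Oosp1* at 0 in DHT replicate 2. The library that was lowest in most fatty acid genes among controls thus had the highest oocyte sum, and the one highest in most of them in DHT had the lowest. The part of this in the results was not tested. Leaving out any single library left all 10 genes called higher. With control replicate 1 and DHT replicate 2 both left out, an alternative added after the data were seen, 9 of the 10 were called, with log2 fold changes of 0.29 for *Elovl5* to 1.47 for *Scd1*, and *Elovl6* was not (0.35, adjusted p = 0.089 by limma). The genes outside the lists whose log2 values followed the mean profile of the 10 most closely over the 6 libraries were *Ank2*, *Spsb1*, *Pcyt2*, *Ice1* and *Tmod2*, with Pearson r of 0.999, 0.999, 0.999, 0.998 and 0.997, and these points share the group difference. *Pcyt2* encodes the rate-limiting enzyme of phosphatidylethanolamine synthesis from ethanolamine.

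The rest of the pathway moved in both directions. Of 56 other genes listed for fatty acid synthesis and its control, 51 were tested, of which 12 rose, 4 fell and 35 did not pass the test, with a median log2 fold change of 0.05 beside -0.01 over all genes. Over all genes tested, 6.52% were called higher and 4.66% lower. *Acss3*, *Elovl3*, *Hsd17b8*, *Olah* and *Thrsp* were not analysed here. Among the 11 genes of carbon supply and acyl-CoA formation, 3 rose and 8 did not pass the test. The 3 were *Acsl3*, an acyl-CoA synthetase that activates free fatty acids (1544 ± 219 to 2785 ± 92.3 normalized counts, log2 fold change 0.86, adjusted p = 0.00057), *Acsl4*, which prefers arachidonic acid (0.49, adjusted p = 0.00045), and *Slc25a1*, the mitochondrial citrate carrier that feeds ATP citrate lyase (0.43, adjusted p = 0.00035). *Me1*, a source of NADPH, had a log2 fold change of 0.03 (adjusted p = 0.85), and *Acacb*, the acetyl-CoA carboxylase of the mitochondrial surface, also 0.03 (adjusted p = 0.82).

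The ELOVL enzymes run only the opening reaction of the elongation cycle. Of 10 other tested genes of that cycle 2 rose and 1 fell, beside 6.52% and 4.66% of all genes. *Tecr*, the reductase that ends the cycle, went from 8015 ± 289 to 11922 ± 150 normalized counts (log2 fold change 0.57, adjusted p = 6.6e-05), a larger estimate than that of either elongase. *Hsd17b12*, the ketoacyl reductase, rose by 0.31 (adjusted p = 0.0019). *Hacd4*, one of the dehydratases, fell from 1747 ± 139 to 958 ± 49.9 (-0.86, adjusted p = 0.00013), whereas *Hacd1*, *Hacd2* and *Hacd3* did not pass the test, with log2 fold changes of 0.05 to 0.15. *Elovl1*, *Elovl2*, *Elovl4* and *Elovl7* did not pass it either, with -0.28 to 0.19.

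Of 9 other genes of desaturation, 4 rose and 2 fell, beside 6.52% and 4.66% of all genes. *Fads3* (0.34, adjusted p = 0.0059) and *Fads6* (0.32, adjusted p = 0.0040) are relatives of *Fads1* and *Fads2*, and *Scd3* is given above. Without an intensity trend neither *Fads3* (adjusted p = 0.062) nor *Fads6* (0.052) was called. Stearoyl-CoA desaturases draw their electrons from cytochrome b5. *Cyb5a*, its microsomal form, which also assists the lyase reaction of steroid synthesis, fell from 12941 ± 1131 to 7708 ± 264 normalized counts (log2 fold change -0.74, adjusted p = 0.00015). *Cyb5b*, its mitochondrial outer membrane form, rose by 0.26 (adjusted p = 0.0021). *Degs1*, a desaturase of sphingolipids, was lower by less (-0.20, adjusted p = 0.023), and its call was lost without control replicate 2 (adjusted p = 0.072) or without any of the DHT libraries (0.065 to 0.089). The 6 genes of mitochondrial fatty acid synthesis had log2 fold changes of -0.16 to 0.17, with 0 called by limma, edgeR or DESeq2 and 2, 1 and 1 at an unadjusted p under 0.05.

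Among 15 regulators, 3 rose and 1 fell, beside 6.52% and 4.66% of all genes. *Insig1*, which holds SREBPs in the endoplasmic reticulum and is itself an SREBP target, went from 4112 ± 470 to 6766 ± 220 normalized counts (log2 fold change 0.72, adjusted p = 0.00044). *Srebf2* (0.49, adjusted p = 0.00017) and *Srebf1* (0.42, adjusted p = 0.00056), which encode the SREBPs, rose as well. *Mbtps1*, the protease that makes the opening cleavage of SREBPs, fell (-0.25, adjusted p = 0.0030). *Scap*, their escort, had a log2 fold change of 0.06 (adjusted p = 0.45), and the liver X receptors *Nr1h2* and *Nr1h3* had 0.03 and -0.05 (adjusted p = 0.63 and 0.91).

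Fatty acid oxidation, the opposite pathway, had a median log2 fold change of -0.03 over 21 genes, of which 1 rose (*Acadm*, the medium-chain dehydrogenase, 0.26, adjusted p = 0.0074) and 1 fell (*Hadha*, of the trifunctional protein, -0.14, adjusted p = 0.040), beside 6.52% and 4.66% of all genes. *Acadm* was not called without an intensity trend (adjusted p = 0.064), and *Hadha* was called neither there nor with any library left out. *Cpt1a*, the gate for entry into mitochondria, had 0.04 (adjusted p = 0.66). In cholesterol synthesis, whose 20 genes all rose, the median was 0.78, with *Fdps* at 1.38 and *Sc5d* at 0.27 as its ends, and without an intensity trend 19 of the 20 were called (*Sc5d* adjusted p = 0.051). The log2 fold change of *Scd1*, 1.68, lay above those of these 20.

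**Figure D5:**
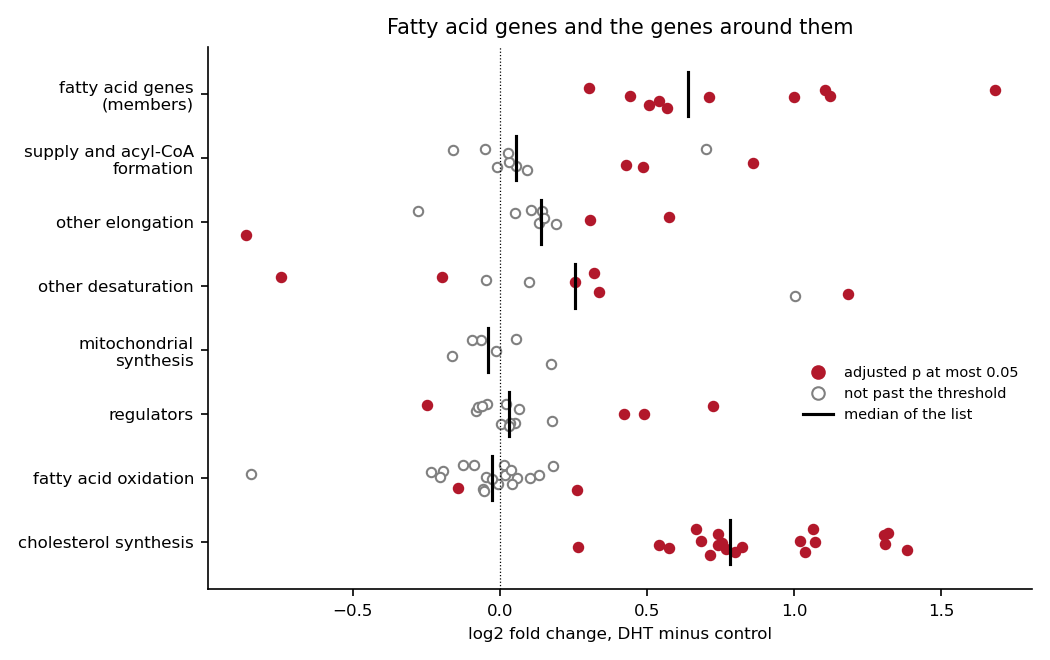
Log2 fold change, DHT minus control, of the fatty acid genes and of the listed genes around them, 1 point per gene, filled where the adjusted p by limma was at most 0.05, with the median of each list as a bar. All 10 fatty acid genes and all 20 cholesterol synthesis genes are filled and lie right of 0, and the other lists lie around 0 with medians from -0.04 to 0.26.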

How the data were processed

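Per the labels and the study's methods, the authors trimmed reads with Trimmomatic 0.36, mapped them to GRCm38 (STAR 2.5.2b) and, with featureCounts of Subread 1.5.2, counted uniquely mapped reads over exons. The strand setting and annotation release are not given in the sources used here. The signal the authors deposited is the count of each gene divided by a DESeq2 size factor. Their columns of log2 fold changes, p-values and adjusted p-values were not used. Values were whole multiples of 1 step per library (100% of 16300, tolerance 1e-06), which gave the reads per library.

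Values were analysed as log2(value + 1) in limma 3.58.1 (R 4.3.3), fitting the variance trend on intensity. Genes needed a mean of 10 or more, and p-values were adjusted by Benjamini-Hochberg over all 16292 of them. The pseudocount understates changes of low genes. Alternatives were pseudocounts of 0.5 and 8, no filter, a mean of at least 50, TMM, quantile normalization, no trend, a replicate block, edgeR 4.0.16 and DESeq2 1.42.0 on recovered reads, and each library left out. Leaving out control replicate 1 and DHT replicate 2 together was added after the data were seen. Tests were checked on simulated data. Positions and exonic lengths came from GENCODE M21 on GRCm38. Groups came from the treatment characteristic. The members and lists were chosen with earlier results of these data known. Genes named were the members, the 2 that rose most and the 2 that fell most among called genes of each pathway list, and regulators. Others, such as *Me1*, *Acacb*, *Cpt1a*, *Scd4*, the remaining elongases and dehydratases and the called genes past the second of a list, were named after their values were seen. The ratios to *Fasn* and the phospholipid list were added after the values were seen.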

Additional observations from a re-analysis of the deposited data

How the results depend on the processing

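All 10 fatty acid genes kept their direction under each of the 17 alternatives, and 9 of them were called higher in every one. *Elovl6* was not called without an intensity trend (log2 fold change 0.44, adjusted p = 0.079, against 0.0096 with it), and neither were *Fads3*, *Fads6*, *Degs1*, *Acadm*, *Hadha*, *Sc5d*, *Pcyt1a*, *Chka*, *Etnk2* and *Mboat1*. In that setting 19 of the 20 cholesterol genes were called higher, and 10 other pathway genes were called higher and 3 lower, against 12 and 4. The number of fatty acid genes with a log2 fold change above 1, 4 in the main test, was 2 with quantile normalization, where *Scd2* had 0.80 and *Acss2* 0.99, 2 with control replicate 1 and DHT replicate 2 both left out, and 2 to 4 with 1 library left out. Over all genes, 1063 were called higher and 760 lower. These counts were 501 and 303 without an intensity trend, 633 and 357 with the replicate block, and 586 to 1240 and 351 to 863 with 1 library left out. With those 2 libraries both left out, an alternative added after the data were seen, they were 466 and 283 (92 and 36 beyond a log2 fold change of 1), with 9 fatty acid genes, 19 cholesterol genes, 10 higher and 4 lower pathway genes and 1 higher and 0 lower oxidation genes, and *Elovl6* (0.089), *Scd3*, *Fads3*, *Hadha*, *Sc5d*, *Chka*, *Etnk2* and *Mboat1* lost their calls. The edgeR test on recovered reads called 1068 higher, and DESeq2 called 1121. With a log2 fold change beyond 1 the counts of 148 higher and 65 lower were 89 and 42 at a mean of at least 50, 96 to 194 and 41 to 91 with 1 library left out, and the lower count was 40 without an intensity trend. The cause was not tested, except that a mean of at least 50 tests fewer genes (12705). The highest of these counts over all genes with 1 library left out were those without control replicate 3. Of the oxidation genes, the 1 called higher and the 1 called lower were both 0 without an intensity trend, the 1 lower was 0 with the replicate block, and with 1 library left out 1 to 2 were higher and 0 lower.

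The deviations of libraries with the same replicate number correlated at 0.00583, 0.0666 and -0.24, and no source says whether such libraries shared mice or a culture day. With the replicate number as a block all 10 fatty acid genes were still called higher, with adjusted p-values by limma of 0.00028 for *Scd1* to 0.047 for *Elovl6*, whereas *Scd3* (0.0765), *Degs1* (0.0645) and *Hadha* (0.118) lost their calls, as did *Chka* and *Mboat1* of the phospholipid list. The within-library log2 ratios kept their direction, at 0.35 to 0.58 for *Acss2* to *Acly*, 0.05 to 0.07 for *Acaca* to *Fasn*, 0.53 to 0.62 for *Scd1* to *Scd2*, 0.28 to 0.49 for *Fads2* to *Fads1* and 0.06 to 0.23 for *Elovl6* to *Elovl5* with 1 library left out. Depth limits the low genes, since the lowest library value of a fatty acid gene was 774 normalized counts and *Scd3* had a mean of 9.48 in control.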

Other observations

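The gene *Pcyt2*, found above by its profile, makes the activated ethanolamine for phosphatidylethanolamine, so 21 genes of phospholipid synthesis were listed after its value had been seen. Of these, 5 rose, 3 fell and 13 did not pass the test, with a median log2 fold change of 0.06 beside -0.01 over all genes, of which 6.52% were called higher and 4.66% lower. The 5 include *Pcyt2* itself, whose profile prompted the list, so the count is a description. *Pcyt2* went from 1853 ± 113 to 3028 ± 81.8 normalized counts (SD, n = 3, log2 fold change 0.71, adjusted p = 9.6e-05 by limma). *Lpcat2* (0.70, adjusted p = 0.0015) and *Lpcat3* (0.42, adjusted p = 0.00040), which load fatty acids onto lysophospholipids, rose too, as did *Etnk2*, an ethanolamine kinase (0.39, adjusted p = 0.030). The enzymes of the choline branch went both ways. *Pcyt1a* (-0.31, adjusted p = 0.0075) and *Chka* (-0.22, adjusted p = 0.029) fell, *Pcyt1b* rose (0.42, adjusted p = 0.0032), and *Chkb* (0.12, adjusted p = 0.19) and *Chpt1* (0.04, adjusted p = 0.55) did not pass the test. *Mboat1*, an acyltransferase of lysophospholipids, fell (-0.24, adjusted p = 0.045). Without an intensity trend *Pcyt1a* was not called (adjusted p = 0.070), nor were *Chka*, *Etnk2* and *Mboat1*. The calls of *Etnk2*, *Chka* and *Mboat1* were lost with some libraries left out: that of *Mboat1* whichever was left out, that of *Etnk2* whichever was left out but control replicate 3, and that of *Chka* without control replicate 1, DHT replicate 1 or DHT replicate 3.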
